A study of Mus musculus with 4 samples.

Results

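Telomerase and shelterin genes were followed in CCE, an embryonic stem cell line from 129/Sv mice, by rows whose symbol is Tert, Terc, Dkc1, Nop10, Nhp2, Gar1, Terf1, Terf2, Pot1a or Tinf2. All 10 were found among the 32592 genes of the table, and all 10 had enough reads to be tested. The cells were infected either with shRNAs against Eif4a2 or with control shRNAs, selected for 3 days in 1 μg/mL puromycin, and harvested on day 4.5 after infection. Poly(A) libraries were sequenced from 2 samples labelled knockdown and 2 labelled control. The protocol names 2 hairpins for Eif4a2 and 2 control vectors (shLuc and shEV) without saying which library received which, and all cells carried a hairpin vector and grew without feeders in serum with leukemia inhibitory factor.

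Telomeres are the repeat-capped ends of chromosomes. Telomerase extends them: the reverse transcriptase TERT copies a short template within the RNA Terc, and the 3′ part of that RNA is folded and stabilized by the H/ACA proteins dyskerin (Dkc1), NOP10, NHP2 and GAR1, which also serve the guide RNAs that direct pseudouridylation of ribosomal RNA. Shelterin protects the finished end: TRF1 (Terf1) and TRF2 (Terf2) bind duplex repeats, TIN2 (Tinf2) bridges them, TPP1 (Acd) recruits telomerase, and POT1a covers the single-stranded overhang. Embryonic stem cells are known for active telomerase and long-term maintenance of telomeres.

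Before the members, the libraries themselves need a description. They held between 4604200 and 13681765 recovered reads, and control 2 was the shallowest. Eif4a2, the targeted gene, was at 752.5 and 814.0 normalized counts (CPM whose denominator is the effective library size) under the knockdown label and at 530.6 and 379.0 in the controls, so it was higher where the label says knockdown (log2 change 0.80, SE 0.15, limma adjusted p = 0.014, and 0.0581 without a variance trend). Every direction below therefore compares labels (knockdown against control) and does not describe a measured loss of the Eif4a2 transcript. In the authors' deposited table Eif4a2 had a log2 fold change of 0.78 with an adjusted p of 9.32e-05. Its exons share up to 178 bases with single small nucleolar RNA genes on the same strand, and 194 with Rfc4 on the opposite strand. The part of these overlaps was not tested. All 12 embryonic stem cell markers listed were present, with summed levels of 9843 to 10204 under the knockdown label and 12938 to 13339 in the others, and 4 of the 12 fell. Of 15 fibroblast markers 11 could be tested, of which 3 rose and 1 fell, with sums of 1306 to 1324 and 1361 to 1487. Named with their values in view, Col1a1 (8.52 and 9.19 normalized counts against 2.43 and 3.85, limma adjusted p = 0.0121), Pdgfrb (22.0 and 23.0 against 13.2 and 9.73, limma adjusted p = 0.0137) and Cald1 (243.9 and 268.8 against 136.4 and 97.8, limma adjusted p = 0.00571) rose, Fn1 fell (806.9 and 771.9 against 1089 and 965.1, limma adjusted p = 0.031), and Dcn and Lum were at 0 in all 4 libraries. Of 12 primitive endoderm markers 2 rose and 1 fell, of 11 trophectoderm markers tested 3 rose and 1 fell (Elf5 was at 0), and of 5 neural markers tested 1 rose and 2 fell. The part of any such cells in the results was not tested. Beside these marker counts stand the shares over all genes tested, of which 10.5% rose and 12.4% fell. The labels do not say whether samples of a group were grown separately. The p-values therefore cover the spread between these 4 samples alone, and that spread may be technical. In bulk RNA, fewer cells of a type and less RNA per cell cannot be told apart.

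The RNA that carries the template is shown first, because its level rested on few reads. Terc (ENSMUSG00000064796) is a single-exon RNA gene on chromosome 3, at 96414437 to 96414859 on the minus strand of GRCm38 in GENCODE M21. Of the 423 bases of this model, 2 stretches are shown, from base 1 to 120 and from base 364 to 423. Capitals mark the stretch CCTAACCC, which is complementary to the mammalian telomere repeat and holds the template, and the ACA of the H/ACA box near the 3′ end.
Terc, 5′ stretch: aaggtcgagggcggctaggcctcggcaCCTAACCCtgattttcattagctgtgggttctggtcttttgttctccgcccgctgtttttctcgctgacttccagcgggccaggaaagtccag
Terc, 3′ end: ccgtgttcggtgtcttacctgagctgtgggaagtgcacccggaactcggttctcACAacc
The letters are those of DNA. The template stretch begins at base 28 of this model and at base 2 of the 397-base RefSeq RNA, whose start lies 26 bases downstream. The ACA stands 3 bases before the end.

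Tert rose while Dkc1 and Terf1 fell, and the other 7 members did not pass the test. That makes 3 of 10 members called, where 23.0% of all 14890 genes tested were called, with 10.5% rising and 12.4% falling. The share of members is close to that background. Groups did not overlap for 6 of the 10 (Tert, Terc, Dkc1, Gar1, Terf1 and Tinf2), against 66.8% of all genes tested. Tert and Terc lay above the controls (32.1% of all genes did) and the other 4 below (34.6%). The median log2 change of the members was -0.09, and that of all genes tested was -0.01. A gene was called at a Benjamini-Hochberg adjusted p below 0.05 in limma, applied to log2(normalized count + 1) of every gene, and log2 changes are on that scale. Leaving out 1 library in turn gave log2 changes of 0.35 to 0.48 for Tert and -0.71 to -0.68 for Dkc1. Such a fit takes its spread from the pair that remains, so its calls are not set against the shares above. An exact permutation test of 2 libraries against 2 cannot go below p = 0.333.

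**Figure D1:**
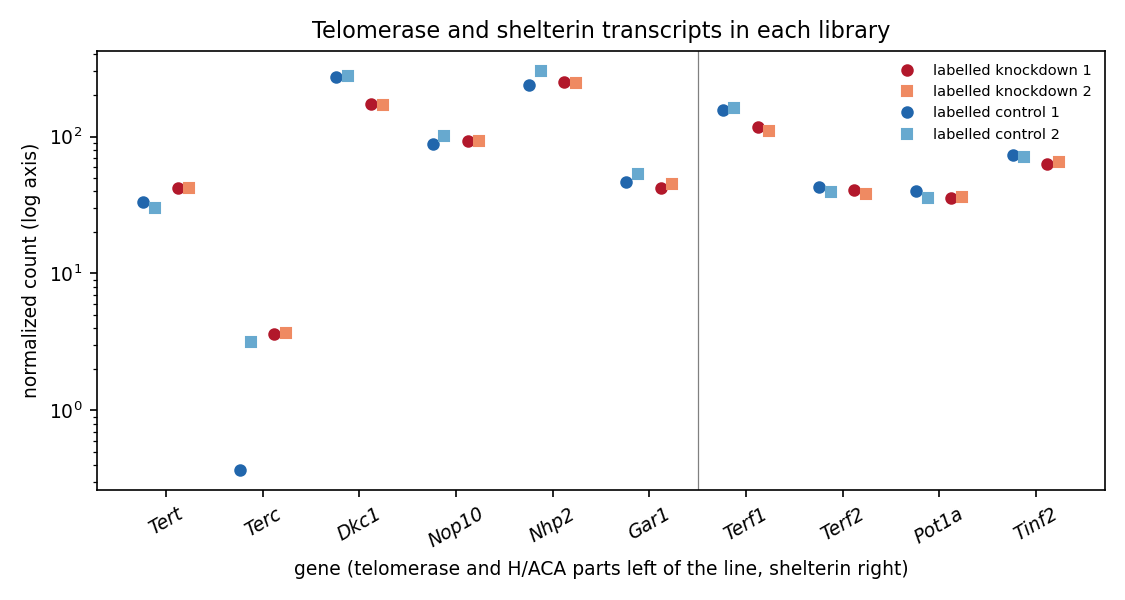
Normalized counts (log axis) of the 10 members in each of the 4 libraries, with 1 point per library. The points of Tert lie higher, and those of Dkc1 and Terf1 lower, in both knockdown-labelled libraries, while a single Terc point, control 1 at 0.368, lies far below the others.

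Tert, the catalytic reverse transcriptase, was at 42.4 normalized counts in knockdown 1, 42.4 in knockdown 2, 33.2 in control 1 and 30.1 in control 2. Both knockdown libraries were above both controls, and the reads behind these values numbered 478, 545, 451 and 133. The means were 42.4 ± 0.000656 and 31.6 ± 2.19 (SD, n = 2 each), a 1.34-fold difference (log2 change 0.41, SE 0.11, limma adjusted p = 0.0369). The SD of the knockdown pair rests on 2 values and is no measure of precision, and counting error was not computed for Tert. The call was not firm, although the direction was the same in all 15 alternatives. DESeq2 gave an adjusted p of 0.101 and limma without a variance trend 0.0715, and without knockdown 1 or knockdown 2 the limma adjusted p was 0.271 or 0.323. The authors' deposited table lists Tert at a log2 fold change of 0.41 with an adjusted p of 0.0278.

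Terc, the template RNA, was covered by 41 reads (knockdown 1), 47 (knockdown 2), 5 (control 1) and 14 (control 2), which is 3.64, 3.66, 0.368 and 3.17 normalized counts. The groups did not overlap, but control 2 stood near the knockdown libraries and control 1 stood alone. The difference did not pass (log2 change 0.96, 95% interval -0.16 to 2.08, limma adjusted p = 0.18). Control 2 was 8.61-fold above control 1 (95% exact interval 2.93 to 30.5, counting error only), whereas knockdown 2 was 1.01-fold of knockdown 1 (0.647 to 1.57). Leaving out control 1 brought the log2 change to 0.16, and leaving out control 2 raised it to 1.77. Each of these fits holds 1 control library and takes its spread from the knockdown pair alone. Reads from PCR without molecular identifiers are not independent molecules, so these intervals are too narrow for the RNA itself.

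Terc has no stable poly(A) tail, and other RNAs of that kind were compared. Rmrp, the RNA of RNase MRP, was at 15.6 and 10.7 normalized counts under the knockdown label and at 91.8 and 459.4 in the controls. Rpph1, the RNA of RNase P, was at 1.51 and 1.09 against 9.2 and 26.9, and the U3 RNA Rnu3a, of a multicopy family whose reads the counting could split, at 0.71 and 0.701 against 13.2 and 53.0. These 3 fell in limma (adjusted p = 0.00938, 0.00761 and 0.00587), each with control 2 above control 1. Rn7sk, the RNA that holds the elongation factor P-TEFb inactive, was at 1.6 and 1.71 against 2.58 and 3.62 and did not pass (limma adjusted p = 0.0951). Terc shared with them the order of the controls, control 2 above control 1, but stood higher under the knockdown label where they stood lower. The part of RNA recovery in any of these values was not tested. Rny1 and Rny3 had no reads in the 4 libraries, and Vaultrc5, Rnu11 and Rnu12 had too few to be tested.

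**Figure D2:**
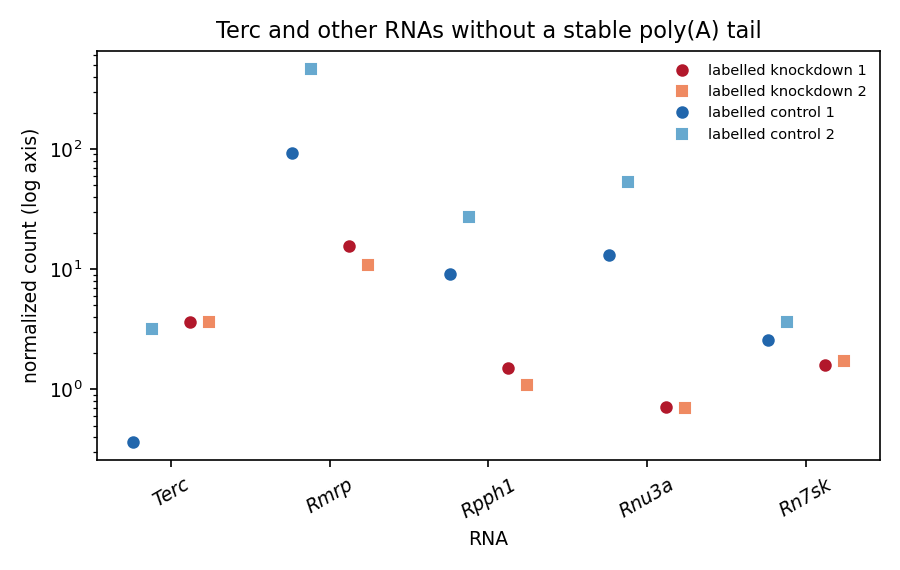
Normalized counts (log axis) of Terc and 4 other RNAs in the 4 libraries, with 1 point per library. Control 2 lies above control 1 for all 5 RNAs, and Terc is the one that is lowest in control 1 (0.368) rather than under the knockdown label.

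Dkc1 had the largest called change of the 10. Dyskerin, its product, is the pseudouridine synthase at the centre of every H/ACA particle, and its gene lies on the X chromosome (75095854 to 75109777, plus strand, GRCm38). It was at 172.8 normalized counts in knockdown 1, 169.1 in knockdown 2, 274.4 in control 1 and 278.8 in control 2. The libraries of each pair lay close together and the pairs lay far apart. The means were 171.0 ± 2.58 and 276.6 ± 3.12 (SD, n = 2 each), 1.62-fold lower (log2 change -0.69, SE 0.08, limma adjusted p = 0.00379). Dkc1 was called in all 15 alternatives, with log2 changes from -0.71 to -0.56. The authors' deposited table gave -0.69 with an adjusted p of 0.000239.

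The partners of dyskerin in the H/ACA core did not pass. Nop10, a small protein that binds dyskerin directly, was at 93.1 and 93.4 under the knockdown label and 88.3 and 101.6 in the controls, so the groups overlapped (log2 change -0.02, 95% interval -0.25 to 0.21, limma adjusted p = 0.887). Nhp2, which binds the RNA, was at 250.2 and 246.4 against 238.8 and 302.8, also overlapping (log2 change -0.11, interval -0.39 to 0.16, limma adjusted p = 0.511). Gar1, which joins the particle last, was at 41.9 and 45.0 against 46.4 and 53.0, lower in both knockdown libraries (log2 change -0.19, interval -0.45 to 0.07, limma adjusted p = 0.256). The intervals allow falls of Nop10 to 0.84-fold, Nhp2 to 0.763-fold and Gar1 to 0.732-fold, and the upper bound for Dkc1 was 0.7-fold. Without control 1, Nhp2 was at a log2 change of -0.29 and Gar1 at -0.28, and without control 2 Nhp2 was at 0.06. These fits hold 1 control library and take their spread from the knockdown pair alone.

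Among the shelterin genes Terf1 fell. TRF1 binds duplex telomere repeats and helps forks replicate through them, and its gene lies on chromosome 1 (15805646 to 15844052, plus strand, GRCm38). It was at 116.7 normalized counts in knockdown 1, 109.2 in knockdown 2, 156.1 in control 1 and 161.3 in control 2, with no overlap. The means were 113.0 ± 5.24 and 158.7 ± 3.71 (SD, n = 2 each), 1.41-fold lower (log2 change -0.49, SE 0.08, limma adjusted p = 0.0102). Its call was lost without knockdown 1 (limma adjusted p = 0.0521), without knockdown 2 (0.142) and without a variance trend (0.0509), with log2 changes from -0.53 to -0.44. The authors' deposited table gave -0.49 with an adjusted p of 0.000559.

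Terf2, whose product shields ends from the ATM damage response, was at 40.7 and 38.1 normalized counts under the knockdown label and 42.7 and 39.6 in the controls, with overlap (log2 change -0.06, interval -0.31 to 0.19, limma adjusted p = 0.706). Pot1a, which keeps ATR from single-stranded ends, was at 35.5 and 36.3 against 40.0 and 35.5 (log2 change -0.07, interval -0.34 to 0.20, limma adjusted p = 0.686). Tinf2, the bridge between TRF1, TRF2 and TPP1, was at 63.6 and 65.4 against 73.8 and 71.1 and did not overlap, but did not pass (log2 change -0.17, interval -0.37 to 0.04, limma adjusted p = 0.213). Tinf2 shares 1540 exonic bases with Gmpr2 on the opposite strand in GENCODE M21. The strand setting of the counting is not given in the sources used here, so reads of that pair cannot be told apart. Dkc1 and Mpp1 share 45 such bases and Nhp2 and Rmnd5b share 44.

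**Figure D3:**
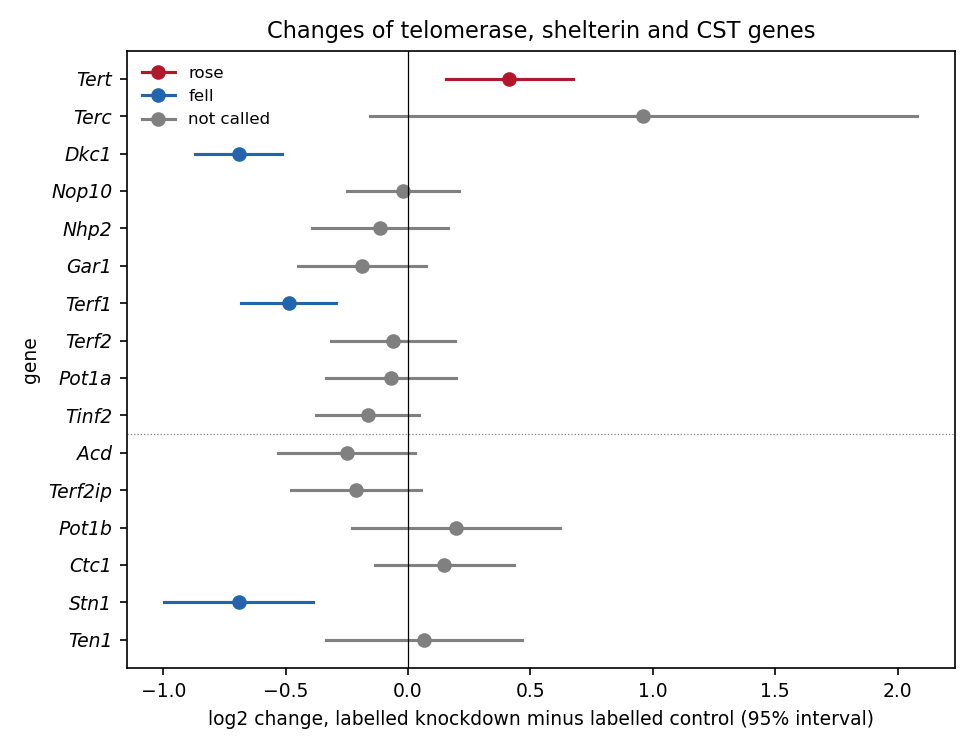
Log2 change (labelled knockdown minus labelled control) with its 95% limma interval for the 10 members above the dotted line, and for the remaining shelterin genes and the CST complex below it. Red marks genes that rose, blue those that fell and grey those not called. Tert, Dkc1, Terf1 and Stn1 have intervals clear of 0 and were called, and the interval of Terc is the widest.

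Ratios of reads between 2 genes of the same library do not depend on how libraries are scaled, so 7 were computed, with the pairs chosen after the values were seen. Dkc1 reads per Nop10 read were 1.86 and 1.81 under the knockdown label against 3.11 and 2.74 in the controls. Dkc1 per Nhp2 was 0.691 and 0.686 against 1.15 and 0.921, and Dkc1 per Gar1 was 4.12 and 3.76 against 5.91 and 5.26. Dkc1 thus stood lower relative to each of its 3 partners in both knockdown-labelled libraries. Such ratios still carry any difference in GC content between the genes, which is described below. Terf1 per Terf2 was 2.87 and 2.87 against 3.66 and 4.07, per Tinf2 1.84 and 1.67 against 2.11 and 2.27, and per Pot1a 3.29 and 3.01 against 3.9 and 4.54. Tert per Dkc1 was 0.246 and 0.251 against 0.121 and 0.108. The groups did not overlap in any of the 7 ratios, each with an exact two-sided permutation p of 0.333, the smallest that 2 against 2 allows. Every numerator was a called member, so the choice of pairs favoured this outcome and it adds no support to the calls. Among single genes tested 66.8% did not overlap, and the share over all pairs of genes was not computed.

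**Figure D4:**
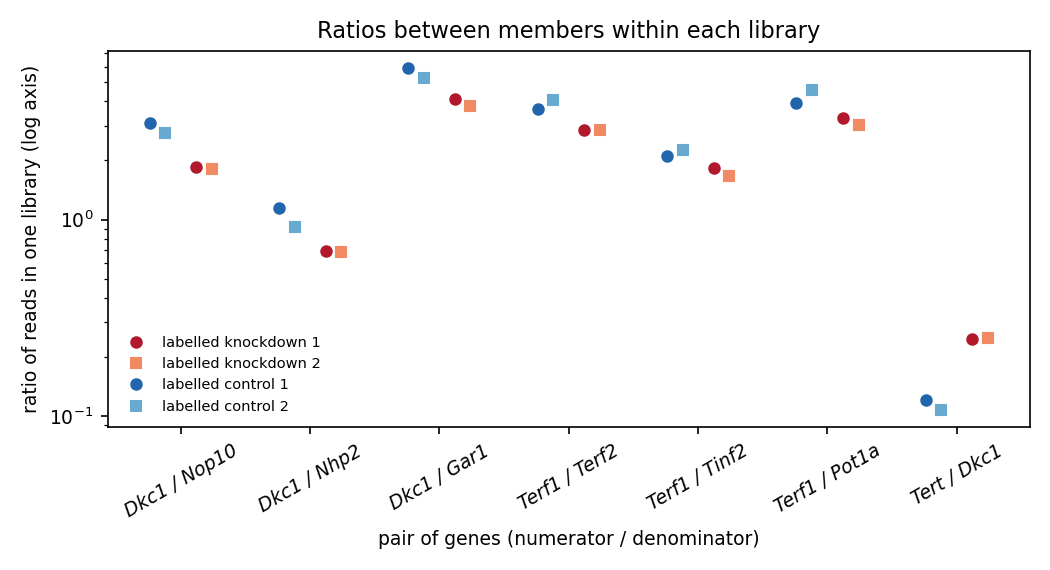
Ratio of reads (log axis) between 2 members within each library, with 1 point per library. The ratios with Dkc1 or Terf1 on top are lower in both knockdown-labelled libraries, and Tert / Dkc1 is higher (0.246 and 0.251 against 0.121 and 0.108).

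Levels per kilobase of the longest annotated transcript ran from Nhp2, Nop10 and Dkc1 at the top to Tert and Terc at the bottom. Nhp2 ranged from 229.1 to 290.6 normalized counts per kilobase over the 4 libraries, Nop10 from 79.6 to 91.6, Dkc1 from 60.3 to 99.4, Terf1 from 37.6 to 55.5 and Gar1 from 33.0 to 41.7. Tinf2 followed at 18.8 to 21.9, Terf2 at 14.3 to 16.0, Pot1a at 10.9 to 12.2, Tert at 6.98 to 9.84 and Terc at 0.87 to 8.65. The ranges of Nop10 and Dkc1, of Terf1 and Gar1, and of Tert and Terc overlapped, and the other neighbours in this order did not. With merged exon lengths, which are longer where many isoforms are annotated, Pot1a moved from position 8 to position 10. How much Terc RNA the poly(A) libraries missed was not tested.

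Log2 changes over all genes moved with the GC content of the transcript, and the called members lay on the same sides. In the lowest of 5 equal bins of GC (28.1% to 44.3%) 127 genes rose and 576 fell. In the 2 highest bins (from 52.2%) 424 and 566 rose and 263 and 184 fell. Terf1 (36.5% GC) and Dkc1 (43.6%) lie in the lowest bin and Tert (53.6%) in the bin from 52.2% to 55.9%. After centring each library within 20 bins of GC, an alternative added after the data were seen, Dkc1 was at -0.56 (limma adjusted p = 0.0054), Terf1 at -0.30 (0.0486) and Tert at 0.38 (0.0459). All 3 were still called, and the log2 change of Terf1 shrank by more than 1.5 times. With this correction the partners of dyskerin were at 0.05 (Nop10), -0.19 (Nhp2) and -0.36 (Gar1, limma adjusted p = 0.0587), and did not pass. Without it Gar1 was at -0.19 and Dkc1 at -0.69, so Dkc1 and Gar1 lay closer together after the correction.

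The sequences just upstream of Tert and Dkc1 are shown because these subunits of a single enzyme were called in opposite directions. They are the 250 bases before the RefSeq start site on GRCm38.p6, both on the plus strand, and capitals mark GC boxes. Entries were found for 8 of the 10 members, not for Terf1 or Terc.
Tert, chr13:73626661-73626910: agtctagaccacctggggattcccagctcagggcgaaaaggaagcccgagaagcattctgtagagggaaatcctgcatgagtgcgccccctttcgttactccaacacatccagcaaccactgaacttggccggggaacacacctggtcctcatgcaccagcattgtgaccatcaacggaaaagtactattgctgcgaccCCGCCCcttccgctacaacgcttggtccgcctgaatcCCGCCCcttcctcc
Dkc1, chrX:75095604-75095853: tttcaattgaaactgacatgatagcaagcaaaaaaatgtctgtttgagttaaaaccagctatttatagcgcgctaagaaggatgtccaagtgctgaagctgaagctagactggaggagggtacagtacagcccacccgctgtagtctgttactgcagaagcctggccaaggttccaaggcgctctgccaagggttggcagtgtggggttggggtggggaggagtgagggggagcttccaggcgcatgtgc
Both strands were searched for the E-box CACGTG, the GC box GGGCGG and the CCAAT box CCAAT. The Tert window holds 2 GC boxes, on the minus strand, beginning 51 and 14 bases before the start site. The Dkc1 window holds none of the 3 motifs. Among all 32851 windows of this length 32.7% hold a GC box, 33.8% a CCAAT box and 6.02% an E-box. None of the 8 members with a window had an E-box in it, while Nhp2 had 3 GC boxes and 3 CCAAT boxes. These are matches of letters to the C57BL/6J reference and were not measured in these cells.

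The rest of shelterin did not pass. Acd, the gene of TPP1, was at 23.97 and 23.75 normalized counts under the knockdown label and 27.7 and 29.4 in the controls (log2 change -0.25, limma adjusted p = 0.165). Terf2ip, the gene of RAP1, which rides on TRF2, was at 34.4 and 35.7 against 38.4 and 43.2 (-0.21, limma adjusted p = 0.208). Acd shares 1208 exonic bases with Carmil2 on the opposite strand, with the same limit as Tinf2. Pot1b, the rodent paralog of Pot1a that limits resection of the overhang, was at 10.2 and 12.8 against 10.5 and 9.28 (0.20, limma adjusted p = 0.465). Of these 3, 0 were called in limma, edgeR or DESeq2, and 0 had an unadjusted limma p below 0.05. Over all genes tested limma called 23.0%, so a count of 0 among 3 genes says little. In all 15 alternatives Acd and Terf2ip were lower under the knockdown label and Pot1b was higher. Acd was called with the GC correction (log2 change -0.42, limma adjusted p = 0.044).

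The CST complex, which brings DNA polymerase alpha to telomeres for fill-in of the C-rich strand and ends extension by telomerase, split among its parts. Stn1 fell 1.64-fold, from 35.9 and 33.9 normalized counts in the controls to 22.9 and 19.7 under the knockdown label (log2 change -0.69, SE 0.13, limma adjusted p = 0.0134, and 0.158 without knockdown 2). Ctc1, the large subunit, was at 202.2 and 190.8 against 199.9 and 157.0 and did not pass (log2 change 0.15, limma adjusted p = 0.405). Its log2 change was 0.32 without control 1 and -0.025 without control 2. Ten1 was at 10.2 and 10.04 against 8.91 and 10.4 (0.07, limma adjusted p = 0.805).

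Of 15 genes for assembly, RNA maturation and transport of telomerase, 1 rose, 1 fell and 13 did not pass. Over all genes tested 10.5% rose and 12.4% fell. Tent4b, a noncanonical poly(A) polymerase that adds tails marking Terc and other small RNAs for trimming, was at 83.5 and 87.4 normalized counts under the knockdown label and 61.0 and 70.1 in the controls (log2 change 0.38, limma adjusted p = 0.0374). Ruvbl1, an ATPase that acts with dyskerin in assembly, was at 41.2 and 36.6 against 49.0 and 55.2 (-0.41, limma adjusted p = 0.0428). Ruvbl1 was not called with library size only (limma adjusted p = 0.101), upper-quartile scaling (0.0699) or no filter on low values (0.0555), and neither Tent4b nor Ruvbl1 was called by DESeq2 (adjusted p = 0.0532 and 0.122), without a variance trend (limma adjusted p = 0.0986 and 0.092), without knockdown 1 (limma adjusted p = 0.183 and 0.144) or without knockdown 2 (0.326 and 0.403).

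Of 22 genes of telomere replication and end processing, 5 fell and 17 did not pass, where 12.4% of all genes tested fell and 10.5% rose. In limma 0 rose, with 1 at an unadjusted p below 0.05, and 0 rose in edgeR or DESeq2. Rpa1, which coats single-stranded DNA, was at 279.0 ± 11.8 against 404.3 ± 21.5 normalized counts in the controls (SD, n = 2 each). The poly-ADP-ribosylase gene Tnks was at 74.4 ± 4.19 against 106.2 ± 8.59. Of the fork-protection partners, Timeless was at 97.8 ± 11.4 against 140.2 ± 9.39 and Tipin at 103.2 ± 4.46 against 137.7 ± 11.3. The helicase gene Blm, named after its value was seen, was at 130.3 ± 6.26 against 157.8 ± 1.42. These were the 5 genes that fell. Their limma adjusted p lay between 0.00835 and 0.049. Tipin was not called with library size only (limma adjusted p = 0.0781), and Blm was called in 4 of 15 alternatives. Without knockdown 2, Rpa1, Tnks, Timeless and Tipin were not called, in a fit that takes its spread from the controls alone. The median log2 change of the list was -0.17 with all libraries and between -0.19 and -0.13 on leaving out 1 library.

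Of 16 genes of telomeric chromatin, 4 fell and 3 rose. Cbx5 (HP1 alpha) was at 454.3 and 397.4 normalized counts under the knockdown label against 772.8 and 840.9 in the controls, 1.89-fold lower (log2 change -0.92, SE 0.10, limma adjusted p = 0.00372, called in all 15 alternatives). Cbx1 (HP1 beta) was 1.36-fold lower (limma adjusted p = 0.0114) and Cbx3 (HP1 gamma), named after its value was seen, 1.69-fold lower at 8.12 ± 0.576 against 13.7 ± 1.71 (limma adjusted p = 0.0322). Cbx3 has processed pseudogenes that could share its reads, so its level is uncertain. Cbx1 was called in 12 of 15 alternatives and Cbx3 in 9. Kmt5c, the H4K20 methyltransferase, was 1.4-fold lower (limma adjusted p = 0.0103). Dnmt3b, a DNA methyltransferase, rose from 125.9 ± 29.9 to 210.8 ± 3.88 (limma adjusted p = 0.0157), and so did, named after their values were seen, Zbtb48, which binds telomere repeats directly (17.1 ± 1.13 to 24.8 ± 0.0488, limma adjusted p = 0.0334), and the H3K9 methyltransferase Suv39h1 (70.8 ± 1.60 to 87.5 ± 0.168, limma adjusted p = 0.0437). Kmt5c was called in 12 of 15 alternatives, Dnmt3b in 14, Zbtb48 in 11 and Suv39h1 in 10. By DESeq2 1 gene of the list rose and 3 fell, and without a variance trend in limma 1 rose and 2 fell. Without knockdown 1 and without knockdown 2, in fits with 1 knockdown library, fewer genes of this list were called. Over these 5 lists 4 genes rose and 11 fell of 59 tested, where 10.5% of all genes rose and 12.4% fell, and with library size only 6 rose and 7 fell.

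**Figure D5:**
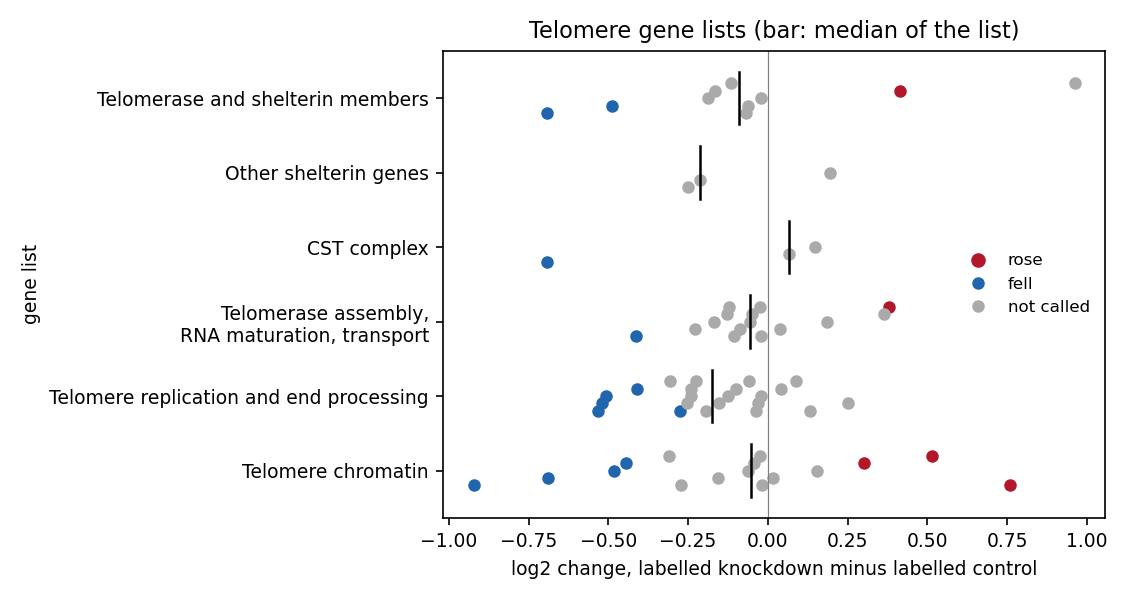
Log2 change (labelled knockdown minus labelled control) of each tested gene, 1 point per gene, in the 6 telomere gene lists, with the list's median as a bar. Vertical offsets within a list carry no meaning. The medians lie between -0.21 (other shelterin genes) and 0.07 (CST complex), and the largest fall is that of Cbx5 (-0.92).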

How the data were processed

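Messenger RNA was measured in 4 poly(A) libraries with single-end reads of 100 bp from 1 μg of total RNA. The submitters' processing notes name build mm9, edgeR 3.26.8, HTSeq 0.11.2, SAMtools 1.9 and Bowtie2 2.3.4.3, without roles. The strand setting and annotation release are not given in sources used here. The deposited signal is gene counts as CPM on an effective library size, as its values show: 100% of values are whole multiples of 1 read (tolerance 0.001). The authors' deposited comparison holds, per the file headers, a raw and an adjusted p-value, a score (likelihood ratio statistic), mean log2 CPM and a log2 fold change.

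Genes passing edgeR 4.0.16's filterByExpr (minimum count 10) on the recovered reads were tested, 14890 in all, with limma 3.58.1 (variance trend, pseudocount 1, no covariate, deposited scaling) in R 4.3.3. The edgeR quasi-likelihood test on recovered reads called 3742 genes and limma 3418. The analysis was tested on simulated data. Replicates were compared first (Pearson's r 0.996 and 0.986 on log2 values), and none was treated as a duplicate. The exact Terc ratio intervals cover counting error only, and the intervals of log2 changes are limma's, from the spread between libraries.

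The members and 13 further gene lists were chosen with earlier results of these data known. The genes named were all members, every gene of the small lists, and up to 4 called genes with the smallest p in each longer list. Any other gene is marked in the text as picked with its value in view. The alternatives were other pseudocounts, no filter, other scalings, no variance trend, edgeR, DESeq2 1.42.0, a replicate block, leaving out each library, and a GC correction. GENCODE M21 (GRCm38) gave lengths, GC content, overlaps and coordinates, and matched 32590 genes by ID. Its build differs from mm9, and none was converted. With blastn 2.17.0, at 95% identity over at least 100 bases, Terf1 matched transcripts of 35 other genes over at most 193 bases. Tinf2 was among those, over 172 bases. Dkc1 matched transcripts of 16 other genes over at most 145 bases. As the query, Tinf2 matched Gmpr2, and the other 7 members matched none.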

Additional observations from a re-analysis of the deposited data

How the results depend on the processing

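Of all genes, 3418 were called as reported, against 1932 without a variance trend and 2219 by DESeq2. Leaving out 1 library gave between 653 and 7724. The telomerase and shelterin members called numbered 3 as reported and 1 without a variance trend (Dkc1), and between 1 and 5 on leaving out 1 library. Of the 59 other telomere genes 15 were called, 5 without a variance trend and 9 by DESeq2, and between 2 and 29 on leaving out 1 library. A fit without a knockdown library takes its spread from the controls alone, and a fit without a control library from the knockdown pair, with the lone sample assumed to vary alike. The median absolute log2 difference was 0.198 within the control pair and 0.0955 within the knockdown pair. Library size as the only scaling moved the median of all genes by 0.11 on the log2 scale, with 2152 genes rising and 996 falling. By upper-quartile scaling 1881 rose and 1336 fell. Under these scalings Tert, Dkc1 and Terf1 were still called. Members that were not called changed sign under some settings. With library size only Nop10 was at 0.10, Nhp2 at 0.0086, Terf2 at 0.059 and Pot1a at 0.051. With upper-quartile scaling Nop10 was at 0.046 and Terf2 at 0.0051, by DESeq2 Nop10 at 0.00044, and with the GC correction Nop10 at 0.049 and Pot1a at 0.073. Leaving out 1 library gave ranges of -0.12 to 0.078 for Nop10, -0.29 to 0.056 for Nhp2, -0.15 to 0.015 for Pot1a, -0.025 to 0.32 for Ctc1, -0.036 to 0.17 for Ten1 and -0.094 to 0.18 for Nop56. The sign turned without control 2 for Nop10, Nhp2 and Ctc1 and without control 1 for Pot1a, Ten1 and Nop56. The cause was not tested. The replicate numbers do not pair the samples by any label, and deviations of same-numbered samples correlated at 0.036 across genes. With the replicate block 4632 genes and 4 members were called, Terc among them (log2 change 0.96, limma adjusted p = 0.0127). For Terc, 3 reads correspond to 0.679 normalized counts in control 2 and 0.221 in control 1. Control 1, where Terc was lowest, was the deepest library (13681765 recovered reads).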

Other observations

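The box C/D core proteins, which assemble the other large class of small nucleolar RNA particles and serve no telomerase, were read beside the H/ACA core. Nop58 was at 254.8 and 251.7 normalized counts under the knockdown label and 278.7 and 340.8 in the controls, and Nop56 at 237.1 and 230.6 against 206.7 and 249.6. The methyltransferase gene Fbl (7.37 and 10.98 against 12.2 and 17.4) and Snu13 (5.06 and 5.92 against 7.58 and 7.24) were listed at low levels. The search for near-identical copies covered the members alone, so the levels of Fbl and Snu13 are uncertain. In limma 0 of the 4 were called, where 23.0% of all genes tested were, with 2 at an unadjusted p below 0.05. In edgeR or DESeq2 0 were called. Fbl, Nop58 and Snu13 were lower under the knockdown label in all 15 alternatives, and Nop56 kept its sign in 14. With the replicate block Fbl and Nop58 were called (limma adjusted p = 0.0129 and 0.0383).

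Rows whose symbols begin with Snora or Scarna hold mainly guide RNAs of the H/ACA class, the other clients of dyskerin. Of 47 such rows 34 had reads and 19 were tested, and 5 fell, where 12.4% of all genes tested fell. In limma 0 rose, with 0 at an unadjusted p below 0.05, and 0 rose in edgeR or DESeq2. Their summed level was 36.8 and 40.6 normalized counts under the knockdown label and 55.2 and 102.1 in the controls. The row with most reads, Snora73b, was at 11.5 and 10.7 normalized counts against 19.6 and 42.5. As for Rmrp and Rpph1, control 2 stood above control 1 in normalized counts, and the part of RNA recovery was not tested.

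Of 12 transcription factors reported to act on Tert, 3 fell and 1 rose, where 12.4% of all genes tested fell and 10.5% rose. Klf4 was at 441.1 and 432.9 normalized counts against 804.0 and 783.8 in the controls (log2 change -0.86, limma adjusted p = 0.00256), Myc at 69.9 and 68.2 against 93.2 and 135.5 (-0.70, limma adjusted p = 0.0268), and Men1 at 93.6 and 94.5 against 115.6 and 117.7 (-0.31, limma adjusted p = 0.0353). E2f1 rose, at 98.7 and 101.6 against 73.2 and 66.3 (0.52, limma adjusted p = 0.0118). Myc was not called without a variance trend (limma adjusted p = 0.0825) or without knockdown 2 (0.0582), and E2f1 not without knockdown 1 (0.0711) or knockdown 2 (0.129). Men1 was not called with library size only (limma adjusted p = 0.133), upper-quartile scaling (0.0701) or no variance trend (0.105), by DESeq2 (0.139), without knockdown 1 (0.307) or without knockdown 2 (0.332).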
